A study of Mus musculus with 5 samples.

Results

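The JNK and p38 stress kinase cascade was examined through 10 genes in neural precursor cells of the mouse subventricular zone. They were picked by gene name, not by level, and comprised the MAP3 kinases Map3k5 and Map3k12, the MAP2 kinases Map2k4 and Map2k7, the MAP kinases Mapk8, Mapk9, Mapk10 and Mapk14, and the scaffolds Mapk8ip1 and Mapk8ip3. Each name matched exactly 1 of 46078 genes listed for every library, and all 10 passed the minimum mean of 1 TPM (a transcript level scaled to one total in each library and corrected for transcript length) that 13870 genes passed. RNA-seq had been done on 5 libraries of primary cells from C57BL/6 mice, labelled as female, aged 5 to 8 weeks and without mutation. The study's methods give a higher age for its donors of such cells, and the label's age is printed here. The cells stood on poly-D-lysine (PDL) and received only PBS as a sham exposure. RNA was taken after 1 h (replicates 1 and 2) or after 8 h (replicates 13, 14 and 15), so the groups differ in time alone by their labels. The study defined 1 replicate of such cells as 1 animal. It read the JNK pathway in cultured astrocytes through phosphorylated c-Jun, and the present libraries give transcript levels only, not kinase activity. In these bulk samples, fewer cells of a type and less RNA per cell cannot be told apart.

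The cascade works in tiers. Stress, inflammatory cytokines or axon injury activate a MAP3 kinase, which phosphorylates a MAP2 kinase, which in turn phosphorylates a MAP kinase on a threonine and a tyrosine of its activation loop. The c-Jun N-terminal kinases (JNK) then act on transcription factors such as c-Jun and on cytoskeletal proteins, and p38 kinases act on further kinases and transcription factors. In neural cells the cascade is known for its part in neurite growth, in the response of neurons to injury and in cell death, and the JIP scaffolds tie JNK to its upstream kinases and to motor proteins.

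The libraries did not group by time alone. Library identifiers in the labels fall into 2 number series, whose meaning the sources used here do not give. Series 1 holds both 1 h libraries and 8 h replicate 14, and series 2 holds 8 h replicates 13 and 15. Xist, which is transcribed from the inactive X chromosome of female cells, stood at 165 and 200 TPM in series 2 and at no more than 0.0611 TPM in series 1, while 4 Y-linked genes summed to 138 to 181 TPM in series 1 and to at most 0.0253 TPM in series 2, against the label of all mice as female. Mitochondrial genes held 10.7% to 11.1% of TPM in series 1 and 6.23% and 6.30% in series 2. Precursor markers were present in every library (all 7 tested, summed 11245 to 14418 TPM), whereas 0 of 5 microglial markers reached the minimum level, with Aif1 at 0, and the endothelial markers Cdh5 and Cldn5 were at 0. The deposited count table held 7 of the 10 genes. Its 1 h columns followed the TPM tables of the same libraries, but the column named 8 h replicate 13 lay within 0.1 log2 of its own table for 25.7% of 6860 genes and of the table of 8 h replicate 14 for 79.1%. Likewise, that named 8 h replicate 15 did so for 42.2% with its own table and 79.1% with that of 8 h replicate 13, and the column named 8 h replicate 14 reached at most 41.3% with any table. TPM values are therefore given first, and counts stand under the column names.

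The 4 MAP kinase genes share the switch on which the cascade converges. Their coding sequence between the codons of the DFG and APE motifs, which bound the activation loop, is shown 5′ to 3′ because it holds the residues that the MAP2 kinases phosphorylate. It was taken from GENCODE vM21 transcripts (GRCm38). Capitals mark the codons of the threonine-proline-tyrosine motif of the JNK genes and of the threonine-glycine-tyrosine motif of p38. Each stretch lies within 1 coding exon, at chr14:33392973-33393053 on the minus strand for Mapk8, chr11:49872788-49872868 on the plus strand for Mapk9, chr5:102989651-102989731 on the minus strand for Mapk10 and chr17:28728363-28728437 on the plus strand for Mapk14.
Mapk8: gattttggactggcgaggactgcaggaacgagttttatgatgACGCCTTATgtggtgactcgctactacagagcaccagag
Mapk9: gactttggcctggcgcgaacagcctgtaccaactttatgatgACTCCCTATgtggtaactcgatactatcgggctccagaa
Mapk10: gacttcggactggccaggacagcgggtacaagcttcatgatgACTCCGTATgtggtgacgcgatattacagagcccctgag
Mapk14: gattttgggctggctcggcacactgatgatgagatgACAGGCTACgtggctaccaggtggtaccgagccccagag
The loops of Mapk8 and Mapk10 differed at 16 of 81 bases, and that of Mapk9 at 20 bases from either. Over the whole coding sequence the JNK genes were 74.8% to 75.7% identical, with no identical run longer than 23 bases, and Mapk8 and Mapk14 were 58.4% identical. No stretch of 100 bases in a transcript of the 4 genes recurred in another gene, so reads of that length could be told apart between them.

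All tiers of the cascade were present, and their levels spanned a wide range. Among the genes picked by name, the scaffold genes were highest and the MAP3 kinase gene Map3k5 lowest. Over the 5 libraries the mean TPM was 109 for Mapk8ip1, 98.1 for Mapk8ip3, 77.3 for Map2k4, 47.9 for Mapk8, 46.7 for Mapk14, 31.0 for Mapk9, 26.5 for Map2k7, 18.4 for Map3k12, 15.8 for Mapk10 and 3.06 for Map3k5. Among all tested genes these means ran from the 13.7th percentile for Map3k5 to the 88.6th for Mapk8ip1. Neighbours in this order overlapped in their ranges over the libraries, apart from the steps from Map2k4 to Mapk8 and from Mapk10 to Map3k5. Within the picked genes, the order was scaffold, MAP2 kinase, MAP kinase and MAP3 kinase only for the leading gene of each tier. Below the leading genes it did not hold, since Map2k7 lay below Mapk8, Mapk14 and Mapk9. Nor did it extend to MAP3 kinases that were not picked. Of these, Taok1 lay above Mapk8, at a mean of 61.0 TPM, and the others tested lay below Mapk8.

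**Figure D1:**
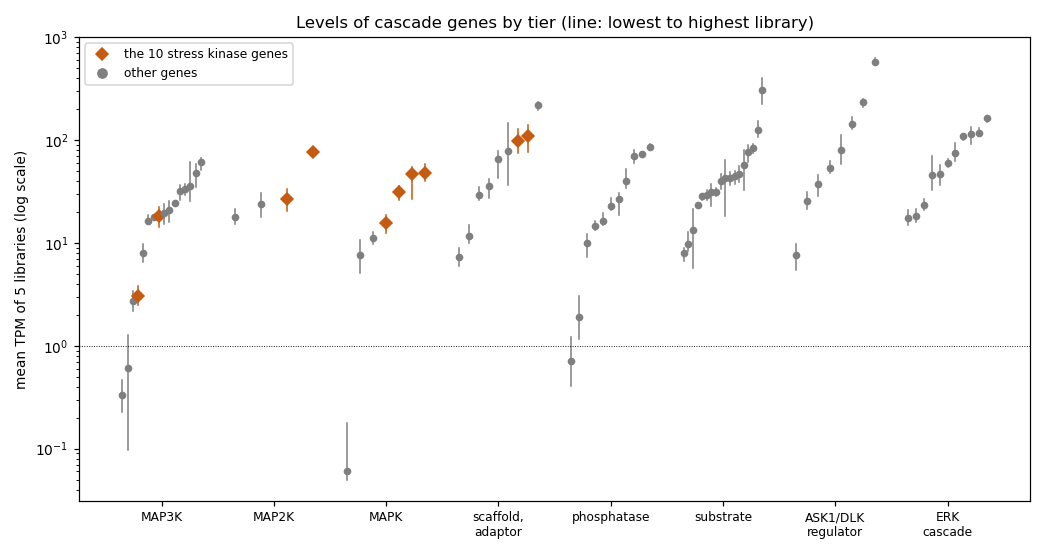
Mean TPM of the 5 libraries on a log axis for each gene of the cascade by tier, with a line from the lowest to the highest library, and the 10 stress kinase genes as diamonds. The scaffolds Mapk8ip1 (109 TPM) and Mapk8ip3 (98.1 TPM) stand at the top of the 10 and Map3k5 (3.06 TPM) at the bottom, above the dotted line at 1 TPM.

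No gene of the 10 passed the test of 8 h against 1 h. A call required an absolute log2 fold change above 1 together with an adjusted p no higher than 0.05. With limma on log2(TPM + 1), 0 of 10 genes met it, and 6 of 13870 did in all (0.0433%). Of the 10, only Map3k12 (1 gene) had an unadjusted p under 0.05, against 12.3% of all genes. Values of both times were apart, without overlap, for 2 of 10, Map3k12 (higher at 8 h) and Mapk10 (lower at 8 h), against 33.1% of all genes. The median log2 fold change of the 10 genes was -0.02, beside 0.10 for all tested genes. Median-ratio scaling of the libraries placed the median of all genes at 0.0016, and relative to the unscaled median the 10 fold changes ran from -0.47 (Mapk10) to 0.37 (Map3k12).

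**Figure D2:**
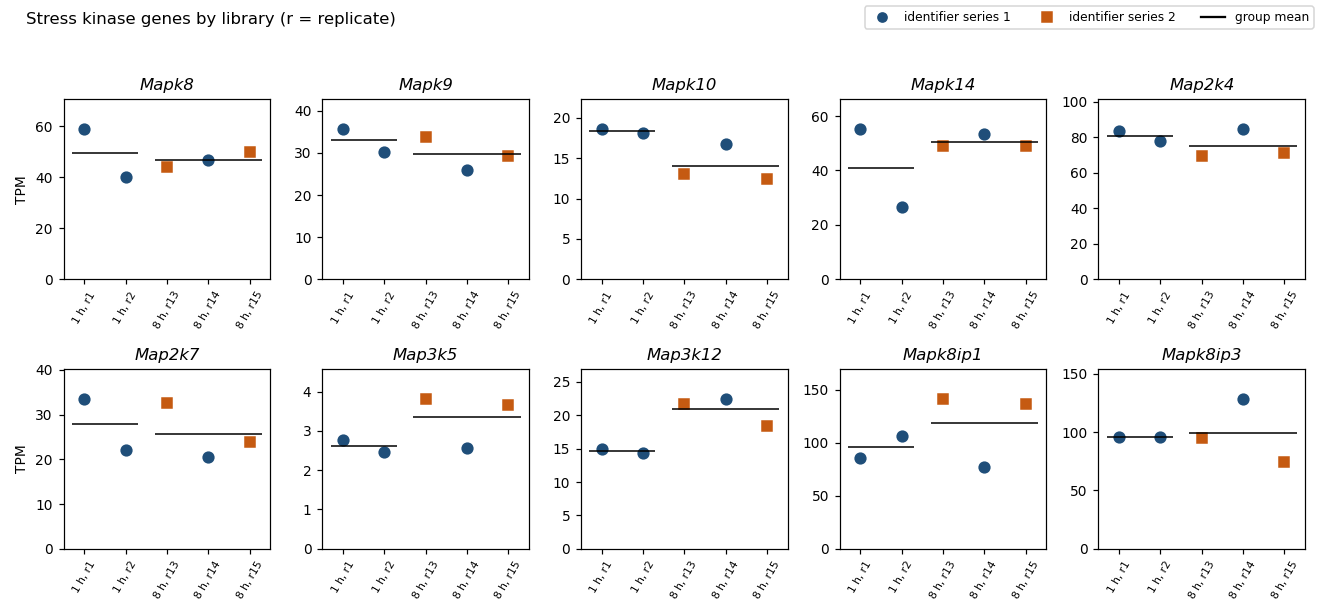
TPM of the 10 genes in each library (linear axes from 0), with the group mean as a line; circles are libraries of identifier series 1 and squares of series 2. Values of Map3k12 and Mapk10 do not overlap between 1 h and 8 h, Mapk14 is low in 1 h replicate 2 (26.6 TPM), and Map3k5 and Mapk8ip1 are higher in both series 2 libraries than in any of series 1.

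Among the MAP3 kinases, Map3k12 (ENSMUSG00000023050, chromosome 15, 102497649 to 102517064, minus strand) encodes DLK, the dual leucine zipper kinase known for carrying axon injury signals to JNK. Its level was 15.0 and 14.4 TPM in the 1 h libraries and reached 21.7, 22.5 and 18.5 TPM in 8 h replicates 13, 14 and 15. Every 8 h library lay above both 1 h libraries. The log2 fold change was 0.47 ± 0.13 (SE; 95% interval 0.15 to 0.80), with an unadjusted p of 0.0119 and an adjusted p of 0.321 (limma). It was the largest of the 10, and it stayed between 0.42 and 0.55 when any 1 library was left out. A fit with the identifier series as a term gave 0.58 (limma, adjusted p = 0.376), since 8 h replicate 14 of series 1 was the highest of the 5 libraries. The 3′ end of Map3k12 overlaps Pcbp2 on the opposite strand, which had 330 to 389 TPM and a log2 fold change of 0.13 ± 0.11 (limma, adjusted p = 0.567). The kit kept strand information, but how the counting treated strand was not stated, and the part of Pcbp2 reads in the Map3k12 level was not tested.

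Map3k5 (ENSMUSG00000071369, chromosome 10, 19934472 to 20142753, plus strand) encodes ASK1, a kinase held inactive by reduced thioredoxin and released by oxidants. It was the lowest of the 10 genes, at 2.78 and 2.47 TPM after 1 h against 3.82, 2.56 and 3.67 TPM in 8 h replicates 13, 14 and 15. The groups overlapped, and the 2 highest values were those of identifier series 2. Its log2 fold change was 0.25 ± 0.20 (SE; 95% interval -0.24 to 0.74; limma, adjusted p = 0.562), and adding the series as a term brought it to -0.02 (limma, adjusted p = 0.985). Within series 1, where time can be read apart from the series, 8 h replicate 14 thus stood between the 1 h libraries.

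The MAP2 kinases activate JNK together, Map2k4 (MKK4) mainly on the tyrosine and Map2k7 (MKK7) mainly on the threonine of the loop, and MKK4 can also act on p38. Map2k4 (ENSMUSG00000033352, chromosome 11, 65688243 to 65788297, minus strand) had the narrowest TPM range of the 10 genes. It had 83.6 and 78.0 TPM after 1 h and 69.5, 84.4 and 71.0 TPM after 8 h in replicate order, a highest-to-lowest ratio of 1.21 (1.31 in the count table, where Map2k7, Mapk9 and Mapk8 had lower ratios). Its groups overlapped, and its log2 fold change was -0.11 ± 0.12 (SE; 95% interval -0.40 to 0.18; limma, adjusted p = 0.654), or 0.063 once the series was a term.

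Map2k7 (ENSMUSG00000002948, chromosome 8, 4238740 to 4251423, plus strand) had 33.5 and 22.0 TPM after 1 h and 32.5, 20.6 and 23.8 TPM after 8 h. High and low values occurred at both times, and the log2 fold change was -0.11 ± 0.25 (SE; 95% interval -0.72 to 0.51; limma, adjusted p = 0.838), or -0.39 once the series was a term (limma, adjusted p = 0.746). The end of the gene in the deposited tables lies beyond its end at 4247897 in GENCODE vM21, where a read-through gene, Gm49320, continues on the same strand and shares 30.4% of the 100-base stretches of Map2k7 transcripts. The Map2k7 level is uncertain to that extent. Map2k4 supplied 68.2% to 80.4% of the summed TPM of the pair in every library.

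The 3 JNK genes kept their order in TPM in every library. In counts, which are not corrected for transcript length, Mapk9 lay above Mapk8 in every column. Mapk8 (JNK1; ENSMUSG00000021936, chromosome 14, 33377898 to 33447158, minus strand) had 58.7 and 40.2 TPM after 1 h and 43.9, 46.8 and 49.8 TPM after 8 h. Both the highest and the lowest value were 1 h libraries, so the 8 h values lay within the spread of the 1 h replicates. The log2 fold change was -0.05 ± 0.17 (SE; 95% interval -0.48 to 0.37; limma, adjusted p = 0.890), which turned to 0.21 without 1 h replicate 1.

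Mapk9 (JNK2; ENSMUSG00000020366, chromosome 11, 49846751 to 49886421, plus strand) had 35.6 and 30.3 TPM after 1 h and 33.8, 25.9 and 29.4 TPM after 8 h. The groups overlapped through 8 h replicate 13. Its log2 fold change was -0.15 ± 0.15 (SE; 95% interval -0.52 to 0.22; limma, adjusted p = 0.631), or -0.33 once the series was a term (limma, adjusted p = 0.602).

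Mapk10 (JNK3; ENSMUSG00000046709, chromosome 5, 102907948 to 103211334, minus strand) is the JNK gene known for its expression in neurons. It was the lowest of the 3, at 18.6 and 18.1 TPM after 1 h against 13.1, 16.7 and 12.4 TPM in 8 h replicates 13, 14 and 15. All 8 h values lay below both 1 h values, and 8 h replicate 14 was the nearest to them. The log2 fold change was -0.37 ± 0.16 (SE; 95% interval -0.76 to 0.02), with an adjusted p of 0.408 (limma). Without 8 h replicate 14 it was -0.49 (limma, adjusted p = 0.0287), which did not reach the fold threshold, and there all 8 h libraries are of series 2, so time and series cannot be told apart. Adding the series as a term gave -0.12 (limma, adjusted p = 0.817). Of 9 neuronal markers 8 were tested and 0 called. Tubb3 had 39.8 and 42.9 TPM at 1 h against 19.0, 37.4 and 19.3 TPM at 8 h. It was lowest in the same libraries as Mapk10, 8 h replicates 13 and 15. So were Syt1 (9.12 and 7.96 TPM at 1 h against 3.36, 7.89 and 1.97 TPM at 8 h), Nefl, Map2 and Stmn2. Of these, Stmn2 was below the minimum level. Syp (9.55 and 8.81 TPM at 1 h against 12.2, 9.86 and 12.6 TPM at 8 h) and Snap25 were highest there. Dcx and Rbfox3 followed neither pattern. The markers together, none of them at 0 in all libraries, summed to 297 to 304 TPM at 1 h and 234 to 490 TPM at 8 h, most of it from Map2, and their part in the Mapk10 values was not tested.

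Taken as shares of their summed TPM, which no scaling of a library alters, Mapk8 gave 52.0% and 45.4% at 1 h and 48.4%, 52.3% and 54.4% at 8 h. Mapk9 gave 29.0% to 37.2% and Mapk10 13.5% to 20.4% over the 5 libraries. The means at 1 h and 8 h were 48.7% ± 4.70 (SD, n = 2) and 51.7% ± 3.05 (SD, n = 3) for Mapk8, 32.9% ± 1.90 and 32.8% ± 4.15 for Mapk9, and 18.4% ± 2.80 and 15.5% ± 2.77 for Mapk10. These shares overlapped between the times for each gene. The 3 genes together reached 113 and 88.6 TPM after 1 h and 90.8, 89.5 and 91.5 TPM after 8 h, so the widest gap lay between the 1 h replicates.

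**Figure D3:**
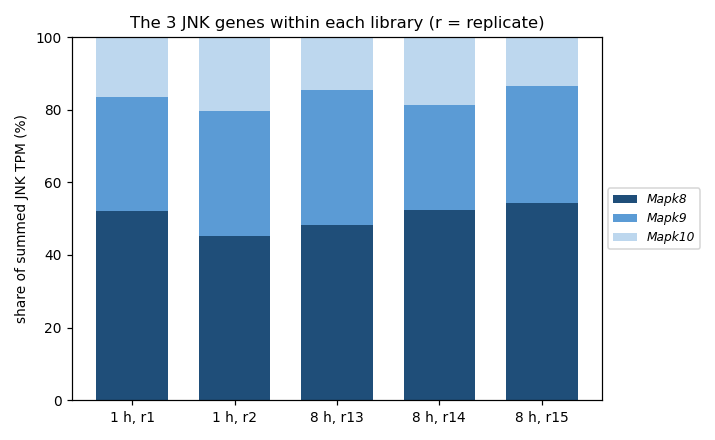
Share of the summed TPM of the 3 JNK genes, in percent, in each library. Mapk8 makes up 45.4% to 54.4%, Mapk9 29.0% to 37.2% and Mapk10 13.5% to 20.4%, in the same order in all 5 libraries.

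Mapk14 (ENSMUSG00000053436, chromosome 17, 28691342 to 28748404, plus strand) encodes p38α, the most widely expressed p38 kinase. Its level was 55.1 and 26.6 TPM after 1 h and 49.1, 53.5 and 48.9 TPM after 8 h. The 8 h libraries were close to each other and to 1 h replicate 1, and only 1 h replicate 2 lay apart, at about the level of Map2k7. The log2 fold change of 0.39 ± 0.29 (SE; 95% interval -0.32 to 1.09; limma, adjusted p = 0.542) rested on that library. It was -0.13 without 1 h replicate 2 and 0.90 without 1 h replicate 1. Mapk14 supplied 61.5% to 78.6% of the TPM of the 4 p38 genes, Mapk11 14.0% to 24.0%, Mapk12 7.35% to 14.7%, and Mapk13 at most 0.244%.

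Of the 2 scaffold genes, Mapk8ip1 was higher and Mapk8ip3 lower in both libraries of series 2 than in any of series 1. For Mapk8ip3 the gap was narrow, at 95.5 TPM in 8 h replicate 13 against 96.0 TPM in 1 h replicate 1. Mapk8ip1 lay above Mapk8ip3 in both libraries of series 2 and also in 1 h replicate 2 of series 1. Mapk8ip1 (ENSMUSG00000027223, chromosome 2, 92383676 to 92401263, minus strand) encodes JIP1, which binds JNK, MKK7 and MAP3 kinases. Its level was 85.8 and 106 TPM at 1 h, and 8 h replicates 13, 14 and 15 reached 141, 76.6 and 137 TPM. The 8 h group held both the highest values, in series 2, and the lowest, in 8 h replicate 14. Its log2 fold change was 0.25 ± 0.28 (SE; 95% interval -0.44 to 0.95; limma, adjusted p = 0.668). The series as a term gave -0.31 (limma, adjusted p = 0.605) and the fit without 8 h replicate 14 gave 0.54 (limma, adjusted p = 0.0327), where time and series coincide and the fold threshold was not reached.

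Mapk8ip3 (ENSMUSG00000024163, chromosome 17, 24892153 to 24936977, minus strand) encodes JIP3, a scaffold that also links cargo to kinesin and dynein in axons. It had 96.0 and 96.3 TPM after 1 h and 95.5, 129 and 74.1 TPM after 8 h. The 1 h libraries lay within the range of the 8 h libraries, and 8 h replicate 14 was the highest. The log2 fold change was 0.01 ± 0.22 (SE; 95% interval -0.54 to 0.56; limma, adjusted p = 0.984), and -0.10 after median-ratio scaling. With the series as a term, which leaves 8 h replicate 14 to be set against the 1 h libraries, it was 0.42 (limma, adjusted p = 0.535). Eme2 overlaps it on the same strand and shares 8.68% of its 100-base stretches. Mapk8ip1 held 47.2% and 52.5% of the summed TPM of both scaffolds at 1 h and 59.7%, 37.3% and 64.8% at 8 h, so 8 h replicate 14 lay below and the other 8 h libraries above both 1 h libraries.

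**Figure D4:**
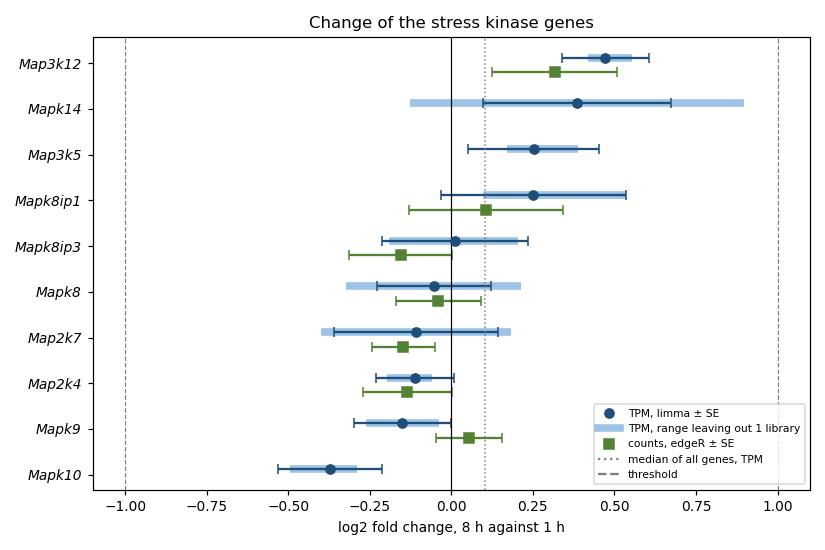
Log2 fold change of 8 h against 1 h for each of the 10 genes from TPM (circles, limma) and, for the 7 genes in the count table, from counts (squares, edgeR), with bars of 1 SE and pale bars for the range when 1 library is left out. No gene reaches the threshold of 1, Map3k12 lies highest (0.47 from TPM) and Mapk10 lowest (-0.37), and the pale bar of Mapk14 runs from -0.13 to 0.90.

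Counts were at hand for Map3k12, Map2k4, Map2k7, Mapk8, Mapk9, Mapk8ip1 and Mapk8ip3, and not for Mapk10, Mapk14 and Map3k5. They ran from 612 reads for Map3k12 to 6949 reads for Mapk8ip3 in a column, and column totals from 13988166 to 18572154 reads. With edgeR's quasi-likelihood test 0 of 7 genes were called, as were 0 of 7590 tested genes (0%), and DESeq2 and limma-voom also called 0. Of the 7, 0 had an unadjusted p under 0.05, against 2.62% of all genes. Columns of the 2 times were apart, without overlap, for 1 of 7, Map2k7, against 18.7% of all genes.

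Counts scaled to a common column total (CPM) stood at 43.8 and 41.9 CPM for Map3k12 at 1 h and at 64.6, 42.5 and 55.8 CPM in the columns named 8 h replicates 13, 14 and 15. Its columns overlapped, because the column named replicate 14 lay at the 1 h level, where the TPM table of that name was the highest. Its change on the log2 scale came to 0.32 ± 0.19 (SE; edgeR, adjusted p = 0.966), or 0.48 without the column named 8 h replicate 14 (edgeR, adjusted p = 0.746). That column is the one that followed no TPM table.

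Map2k7 had 108 and 110 CPM at 1 h and 99.2, 96.2 and 106 CPM at 8 h, with a log2 change of -0.15 ± 0.10 (SE; edgeR, adjusted p = 0.966). Here the 8 h columns all lay below the 1 h columns. Mapk8 had 95.9 and 90.3 CPM at 1 h and 91.4, 105 and 81.0 CPM at 8 h, so the log2 change came to -0.04 ± 0.13 (SE; edgeR, adjusted p = 0.979). The other 4 genes had log2 fold changes of 0.05 (Mapk9), -0.13 (Map2k4), 0.11 (Mapk8ip1) and -0.15 (Mapk8ip3), each with an adjusted p of at least 0.966 (edgeR).

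For some of the 10 genes the replicates differed in TPM but not in counts. This comparison and its tolerance were chosen after the values were seen, and it used the 1 h libraries, whose columns followed their own tables. In TPM, Mapk8 of 1 h replicate 2 was at 0.684 times its level in replicate 1, but at 0.941 times in CPM. Map2k7 was at 0.658 times in TPM and 1.02 times in CPM. The remaining 5 genes gave nearly the same ratio on both scales, such as 0.961 and 0.959 for Map3k12 and 1.24 and 1.27 for Mapk8ip1. The log2 ratios lay more than 0.2 apart for 2 of 7 genes, and for 10.7% of 6860 genes that had 100 counts or more in each column. The highest-to-lowest ratio needs no match of single columns to tables, but it takes both to hold the same 5 libraries. That is not shown for the column named 8 h replicate 14, which followed no table. The ratio was 1.63 in TPM and 1.14 in CPM for Map2k7. Its median over the 7 genes was 1.56 in TPM and 1.31 in CPM, beside 1.36 and 1.30 for all 6860 genes. The gap between the 1 h replicates in Mapk8 and Map2k7 was thus present in the TPM tables and not in the count table, and for Mapk14, which has no counts here, only the TPM gap is known.

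**Figure D5:**
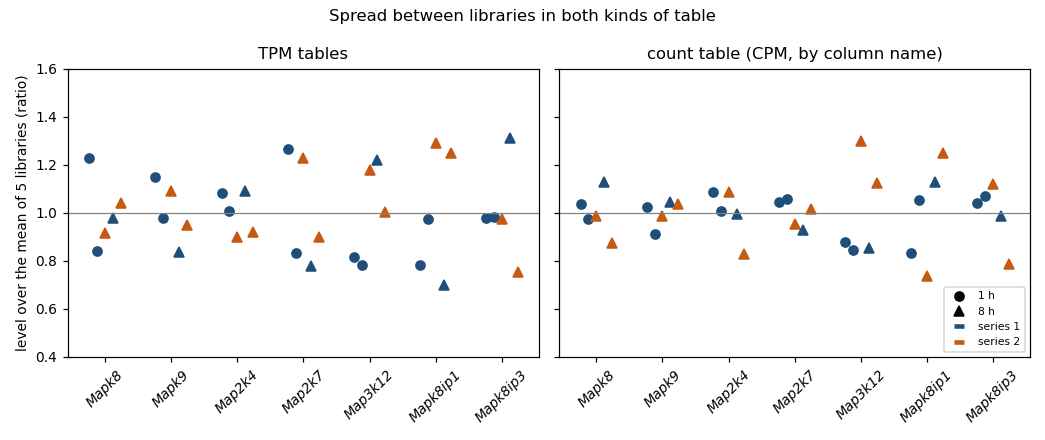
Level of each of the 7 counted genes in each library, divided by its mean over the 5 libraries, from the TPM tables (left) and from the count table by column name (right); circles are 1 h, triangles 8 h, and colours the identifier series. The points of Map2k7 spread over a highest-to-lowest ratio of 1.63 in TPM and 1.14 in CPM, while those of Map3k12 spread alike on both scales (1.56 and 1.54).

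The genes whose TPM pattern came closest to Mapk14, the member with the widest range (1.02 on the log2 scale), were Pfdn4, Hnrnpc and Trim26, with root mean square differences of 0.068, 0.077 and 0.086 over the 5 libraries. All 3 were low in 1 h replicate 2 alone. Trim26 went from 30.0 to 11.8 TPM between the 1 h replicates, while its counts were at 65.9 and 63.8 CPM. Fam151b, RP24-82B9.1 and Slc37a3 were closest to Mapk8, at 0.045, 0.047 and 0.053. Such likeness over 5 libraries is a description only, with 5493 and 9890 candidate genes.

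Of 63 further genes of the JNK and p38 cascade, 59 were tested and 0 were called (limma, 0.0433% of all genes). Of them 4 with a higher and 2 with a lower level at 8 h had an unadjusted p under 0.05, against 12.3% of all genes, and the groups did not overlap for 15, 10 higher and 5 lower, against 33.1% of all genes. Their median log2 fold change was 0.06. Among the 3 other p38 genes the highest was Mapk11 (p38β), with 9.80 and 10.4 TPM after 1 h and 12.8, 11.1 and 11.8 TPM after 8 h. Of the 2 MAP2 kinases that act on p38, Map2k3 (MKK3) was the higher, at a mean of 23.7 TPM, and 0 had an unadjusted p under 0.05. Of 14 MAP3 kinases 12 were tested, led by Taok1 at 61.0 TPM, and Taok2, also a TAO kinase, had a fold change of 0.50 ± 0.13 on the log2 scale (SE; adjusted p = 0.309 in limma).

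Among the 7 scaffolds and adaptors Spag9, which encodes the JNK scaffold JIP4, was the highest at 218 TPM. Crk, an SH2 and SH3 adaptor, had 40.4 and 36.5 TPM after 1 h and 147, 47.5 and 123 TPM after 8 h, which gave a log2 change of 1.29 ± 0.47 (SE; adjusted p = 0.384 in limma). Both high values were libraries of series 2, and the gene was called when 8 h replicate 14 was left out (1.78 on the log2 scale, adjusted p = 0.0019 in limma), where time and series cannot be told apart. In the count table its highest-to-lowest ratio was 1.15, against 4.04 in TPM, so the gap of the TPM tables was not present in the counts.

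Phosphatases switch the MAP kinases off. Of 11 such genes 10 were tested, with Ppm1a the highest at 86.0 TPM. Dusp26 had a fold change of -0.63 ± 0.19 on the log2 scale (SE; adjusted p = 0.352 in limma). It lay near the minimum level, at 2.36 and 3.06 TPM after 1 h and 1.45, 1.57 and 1.16 TPM after 8 h. Among 18 substrates the highest was Stmn1, which encodes the microtubule regulator stathmin, at 305 TPM. The ubiquitin ligase gene Itch had 65.3 and 60.6 TPM after 1 h and 85.0, 81.7 and 88.8 TPM after 8 h, or 0.43 ± 0.10 on the log2 scale (SE; adjusted p = 0.285 in limma). Its 8 h TPM values of both series lay above both 1 h values, whereas its count columns overlapped (165 and 158 CPM against 207, 123 and 193 CPM), with a log2 change of 0.085 ± 0.22 (SE; edgeR, adjusted p = 0.979). Mef2c, a transcription factor gene and p38 target, had 21.3 and 17.1 TPM after 1 h and 9.65, 12.6 and 5.74 TPM after 8 h, or -1.02 ± 0.31 on the log2 scale (SE; adjusted p = 0.345 in limma), and was called without 8 h replicate 14 (limma, adjusted p = 0.021), where time and series cannot be told apart. The series as a term gave -0.56 (limma, adjusted p = 0.638). The count columns of Mef2c overlapped, and the log2 change there was -0.20 ± 0.26 (SE; edgeR, adjusted p = 0.966). The transcription factor gene Atf7 had a value of 0.31 ± 0.10 (SE; adjusted p = 0.363 in limma). Of 8 regulators of ASK1 and DLK, all tested, the highest was Txn1, the thioredoxin that binds ASK1, at 577 TPM, and 0 had an unadjusted p under 0.05.

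The ERK cascade, the MAP kinase route of growth factors, was set beside it. Of 11 genes 0 were called (limma), 1 had an unadjusted p under 0.05 (12.3% of all genes) and the groups did not overlap for 5 (33.1% of all genes). Their median log2 fold change was 0.12, near the 0.10 of all genes. Lamtor3, an ERK scaffold, had a fold change of 0.35 ± 0.13 on the log2 scale (SE; adjusted p = 0.392 in limma).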

How the data were processed

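Total RNA of neural precursor cells was sequenced by the study from stranded, poly-A selected libraries, 2 at 1 h and 3 at 8 h after PBS. Reads were aligned to GRCm38 with STAR through nf-core/rnaseq and counted with featureCounts by the authors, and the submitters' processing notes also name bcl2fastq 2.19.1.403, CASAVA and DESeq2. The count table that the authors deposited lists read counts of 7599 Ensembl genes without normalization, and its name calls it filtered, with no filter stated. It had 0 unassigned value columns and 0 rows without a gene name. Per library, TPM, FPKM and mean per-base coverage of each gene were deposited, in a StringTie layout with tool and version not given in the sources used here. Deposited coverage was not used, and FPKM only as an alternative. Depth cannot be read from TPM.

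TPM was summed per gene ID (15 to 20 further rows per table). Genes with a mean of at least 1 TPM were tested with limma 3.58.1 (R 4.3.3) on log2(TPM + 1) with an intensity trend, a scale that understates the change of low genes. Counts were tested with edgeR 4.0.16 (TMM, filterByExpr, quasi-likelihood), where an SE was the absolute fold change over the square root of the F statistic. P-values were adjusted by Benjamini-Hochberg over all genes tested, and a call required an absolute log2 fold change above 1 with an adjusted p no higher than 0.05, the study's thresholds for other RNA-seq data. The p-values set the difference between 8 h and 1 h against the spread between these libraries within each time. In the main fits that spread includes, at 8 h, the difference between the 2 identifier series. With 2 against 3 libraries no exact permutation test was used. The match of columns to tables took each gene's count-to-TPM offset from the 1 h libraries, so the 1 h match is in part built in. Alternatives were DESeq2 1.42.0 (alpha 0.1), limma-voom, pseudocount 0.1, FPKM, other scalings and filters (none, or a CPM of at least 1 in 2 libraries), an adjusted p of 0.01, no fold threshold, the identifier series as a term or series 1 alone, and leaving out each library. The fits were tested on simulated data.

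The 10 genes and all lists were chosen with earlier results of these data known. Named besides them were, per list, the gene with the highest mean TPM, any called gene and up to 3 with an unadjusted p under 0.05 and the largest fold change, and the 3 genes most like Mapk14 and Mapk8 among those with at least the member's range divided by 2, leaving out names made of Gm and a number or ending in Rik. Pcbp2, Eme2 and Gm49320 were named for overlapping a member, and Mapk12, Mapk13, the neuronal markers and the library markers for the level they give. Map3k20 was matched by gene ID. One item that this rule selects is not reported here. Mapk13, Map3k6, Map3k9 and Dusp2 were below the minimum level. Sequences, overlaps and shared stretches come from GENCODE vM21. There, AC170998.1 is a further coding gene that overlaps Mapk14 on the same strand, and 0% of the 100-base stretches of Mapk14 are shared. On the opposite strand, Gm10337 overlaps Map3k12, 1700029I15Rik overlaps Mapk8ip1, and Mrps34 and Nme3 overlap Mapk8ip3. Their part in the levels was not tested.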

Additional observations from a re-analysis of the deposited data

How the results depend on the processing

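No paired analysis was possible because the groups share no replicate number. Under each alternative run, 0 of the 10 genes were called in TPM and 0 of 7 in counts. Over all genes limma called 6 in the main fit, 573 without 8 h replicate 14 and 19 with the identifier series as a term. It called 0 to 6 in the other refits that kept at least 2 libraries at each time. The number over all genes is not given here for an adjusted p of 0.01 or for no fold threshold. Among the 59 tested further cascade genes, leaving out 1 library gave 0 to 2 called, and the 2 were Crk and Mef2c without 8 h replicate 14. Of the fold changes of the 10 genes under the alternatives, 97 kept their direction in TPM and 13 did not, and 70 and 7 in counts. With the series as a term, and in series 1 alone, the TPM fold change was 0.063 for Map2k4, -0.023 for Map3k5 and -0.31 for Mapk8ip1. For Mapk8ip3 it was -0.10 with median-ratio scaling and -0.051 with FPKM. Leaving out 1 library gave -0.32 to 0.21 for Mapk8, -0.13 to 0.90 for Mapk14, -0.40 to 0.18 for Map2k7 and -0.19 to 0.20 for Mapk8ip3. In counts the series term, set by column names that the columns named 8 h replicates 13 and 14 do not bear out in their match to the tables, gave 0.13 for Mapk8 and -0.047 for Map3k12, and leaving out 1 column gave -0.12 to 0.052 for Mapk8, -0.020 to 0.14 for Mapk9 and -0.053 to 0.30 for Mapk8ip1. The cause was not tested. Series 1 alone holds 1 8 h library, whose own spread is unknown and is taken to equal that of the 1 h libraries.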
